A study of Mus musculus with 7 samples.

Results

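The membrane repair genes examined here are dysferlin (*Dysf*), the annexins *Anxa1*, *Anxa2*, *Anxa4*, *Anxa5*, *Anxa6* and *Anxa7*, the caveolins *Cav1* and *Cav3*, and calpain 3 (*Capn3*). These 10 members were found by their gene symbols among the 31531 genes of the deposited table of normalized counts, and each symbol matched 1 gene. RNA was measured by SMART-seq2, which makes full-length cDNA directly from a lysate, in muscle fibers of mouse fetuses at E17.5, with 4 WT libraries (WT1 to WT4) and 3 dyW libraries (dyW1 to dyW3). The dyW mouse carries a disrupted *Lama2*, the gene for the laminin-α2 chain, and models the congenital muscular dystrophy LAMA2-CMD. Fetuses came from crosses of heterozygous C57BL/6 mice, and homozygous dyW fetuses were compared with WT fetuses at the same age, with no treatment in either group. Fibers of the epaxial muscles, which run along the back, were freed with dispase and collagenase and collected from a strainer, so every cell that stayed on the strainer could contribute RNA, and a fall in the number of cells of a type cannot be told apart from less RNA per cell.

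A skeletal muscle fiber is damaged mechanically when it contracts, and a tear in its membrane is closed within seconds after calcium enters. Dysferlin, a large membrane protein with several calcium-binding C2 domains, takes part in the fusion of vesicles at the tear, and annexins, which bind membrane phospholipids when calcium is present, assemble into a cap over it. Caveolins shape the small membrane pits called caveolae that serve as a reserve of membrane. Caveolin-3 is the muscle form and caveolin-1 the form of endothelium, fibroblasts and fat, and calpain 3 is a muscle protease that cleaves cytoskeletal proteins. Loss of dysferlin, caveolin-3 or calpain 3 causes muscle disease in humans.

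The libraries differed in more than the genotype. Reads on genes numbered 470804 to 2220813 in the WT and 3663905 to 18297106 in the dyW libraries, so that 1 read was worth 2.05 to 5.33 normalized counts in the WT and 0.0974 to 0.488 in the dyW libraries. A count of 0 therefore allows up to 3 reads, or 6.15 to 15.99 normalized counts in the WT libraries and 0.292 to 1.47 in the dyW libraries. Despite fewer reads, 25530 to 29594 genes had at least 1 read in the WT libraries, against 14209 to 19360 in the dyW libraries, and the median log2 fold change of dyW over WT over all tested genes was -1.99. The targeted gene *Lama2* was at 90.6 to 111 normalized counts in the WT libraries, 4.29 in dyW1, 6.07 in dyW2 and 139.7 in the library labelled dyW3. By its *Lama2* level the library labelled dyW3 goes against its label. The WT level of *Lama2* rested on 17 to 51 reads per library. Per kb it was 0.915 to 1.61 times the median of receptor genes that muscle is not known to use, described below. In the library labelled dyW3 it was 8.72 times. The WT level was thus not separated from that of such genes. The counts do not show where along *Lama2* the reads fell, so whether a disrupted allele gave them was not tested. Values without the library labelled dyW3 are given where a result rests on it. The summed level of 10 myofiber markers was 2564 to 69877 normalized counts in the WT libraries, 54.5 in dyW1, 8016 in dyW2 and 4581 in the library labelled dyW3. In dyW1, 5 of these 10 markers had a read, and *Ckm*, *Myh3*, *Myh8*, *Actn2* and *Tnnc2* were at 0, so the labelled cell type had little support from its markers in that library. WT1 carried 433621 normalized counts over 5 cartilage markers, mostly *Col2a1*. The gene of highest mean over all 7 libraries in each marker list did not pass the test, from *Col2a1* (log2 fold change -8.23, limma adjusted *P*-value 0.0549) through *Acta1* (-4.78, 0.113), *Acta2* (-2.25, 0.429), *Myog* (-1.17, 0.685), *Pecam1* (-0.57, 0.482), *Fabp4* (0.01, 0.998) and *Mrc1* (0.04, 0.989) to *Col3a1* (0.43, 0.823). These do not stand for their lists, since *Mrc1* led through the library labelled dyW3 (*Ptprc* was highest in WT, with -4.26 and 0.0627), and *Col1a2*, the highest fibroblast marker in dyW, was higher at 0.05 (2.10, 0.0157).

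The ratio of the caveolins did not overlap between the groups, and the 250 bases upstream of the annotated 5′ ends of both genes are shown because an E-box, the letters CANNTG bound by MyoD and related factors, is a common element of muscle promoters. Coordinates and letters are from GRCm39 with gene ends of GENCODE release 39, both windows are on the + strand, and the capitals mark the E-boxes.
Cav3: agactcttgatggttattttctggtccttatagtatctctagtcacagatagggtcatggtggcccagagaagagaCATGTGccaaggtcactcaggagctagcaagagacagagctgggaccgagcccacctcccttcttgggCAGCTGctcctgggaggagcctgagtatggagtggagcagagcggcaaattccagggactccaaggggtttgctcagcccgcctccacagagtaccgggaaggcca
Cav1: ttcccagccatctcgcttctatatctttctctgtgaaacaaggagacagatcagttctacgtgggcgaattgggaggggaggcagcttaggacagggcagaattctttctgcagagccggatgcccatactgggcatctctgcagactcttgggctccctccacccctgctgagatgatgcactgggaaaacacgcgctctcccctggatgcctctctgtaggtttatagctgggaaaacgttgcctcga
The *Cav3* window at chr6:112436216-112436465 held 2 E-boxes, and the *Cav1* window at chr6:17305890-17306139 held 0 E-boxes. E-boxes read the same class of letters on both strands, and at least 1 was present in 67.8% of the 31268 upstream windows of the same length, and at least 2 in 32.7%. The GC box GGGCGG, searched on both strands, was in neither window and in 23.4% of all windows, and the TATA box TATAAA, also on both strands, was found once in the *Cav1* window and in 13.9% of all windows. Over the 10 members, the E-box count ranged from 0 in *Anxa1*, *Anxa6* and *Cav1* to 3 in *Anxa4*. These matches describe letters and not bound sites.

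No member passed the thresholds of the study, an adjusted *P*-value under 0.01 with an absolute log2 fold change over 1.5, in either direction. Of the 10 members, 9 had a mean normalized count of at least 5 and were tested with limma. Among all 25791 tested genes, 18.7% were called lower in dyW and 0.0659% were called higher. At an adjusted *P*-value under 0.05 with the same fold threshold, 1 member, *Cav3*, was lower (29.6% of all tested genes) and 1 member, *Anxa1*, was higher (1% of all tested genes). The same 1 lower and 1 higher member were under 0.05 before adjustment. The median log2 fold change of the 9 tested members was 0.65 beside -1.99 over all tested genes, and 8 of the 9 lay above that overall median, all but *Cav3*. All 9 had a mean of at least 50 normalized counts, and over the 6111 genes at that level the median was 0.20. *Anxa6* (0.03), *Dysf* (-1.14) and *Cav3* (-3.96) lay below 0.20. The overall median moved to -1.24 when libraries were scaled to the same total and to 0.06 under quantile normalization, so a sign close to 0 depends on the scaling.

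**Figure D1:**
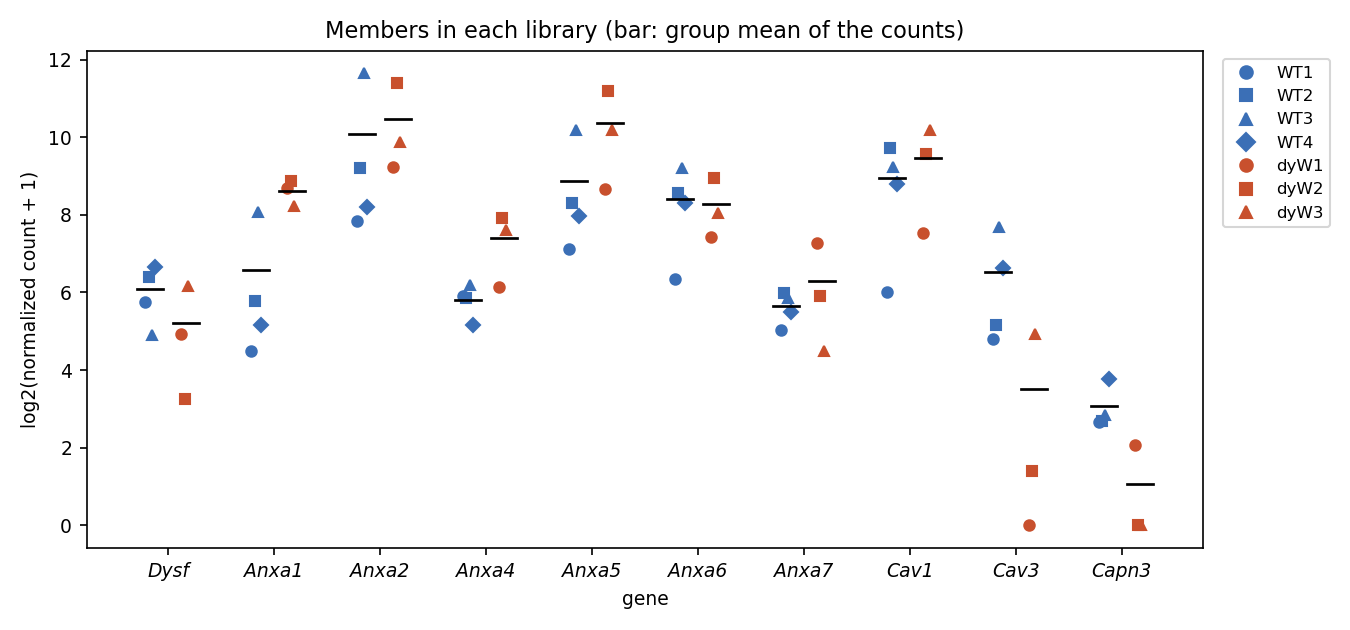
Normalized counts of the 10 members in each library, on a log2(normalized count + 1) axis. Each point is a library, blue for WT and orange for dyW, and each bar is the log2 of the group mean plus 1. The 3 dyW points lie above all WT points for Anxa1 and below them for Capn3, and overlap the WT points for the other members.

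Dysferlin was low in both groups, and the groups overlapped. *Dysf* (chr6:83985345-84188042, + strand) had 53.3, 83.6, 28.7 and 100.7 normalized counts in WT1 to WT4, and 29.6, 8.60 and 70.8 in dyW1 to dyW3. Only dyW2 lay below every WT library. The WT mean was 66.6 ± 32.0 (SD, n = 4) and the dyW mean 36.3 ± 31.6 (SD, n = 3), a difference within the spread of the libraries (exact permutation test, two-sided, *P* = 0.286). The log2 fold change was -1.14 ± 0.84 (SE), with a limma adjusted *P*-value of 0.326. This value lay 0.85 above the median of all tested genes, but below the median of 0.20 over genes with a mean of at least 50. It was -1.83 without the library labelled dyW3 (adjusted *P*-value 0.0944), -0.38 without dyW2 and -0.03 when scaled to the same total, and none of the 16 alternatives gave an adjusted *P*-value under 0.05 (0.0944 to 0.987). The counts rested on 10 to 32 reads per WT library and 68 to 304 per dyW library. As a yardstick, the median of 1388 odorant and vomeronasal receptor genes, which muscle is not known to use, was 0.631 to 2.51 reads per kb of exon in the WT libraries, 0 in dyW1 and dyW2, and 1.84 in the library labelled dyW3. *Dysf* stood at 1.38, 1.07, 0.687 and 1.49 times that level in WT1 to WT4 and at 6.86 times in the library labelled dyW3. The WT level of dysferlin was thus not separated from that of genes without a known role in muscle. Exons of *Dysf* also overlap those of the antisense genes *Gm33024* and *Gm15475*, and the strand setting of the counting is not given in the sources used here. Antisense exons also overlap *Anxa4* (753 bases, *Gm44036*), *Anxa5* (548, *1810062G17Rik*), *Cav1* (289, *Gm68216*), *Anxa2* (98, *Gm16144*) and *Anxa6* (95, *Gm74393*).

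Annexin A1 was the member with the highest fold change. *Anxa1* (chr19:20350792-20368374, - strand) encodes a protein that is recruited to torn membranes and is also abundant in fibroblasts and leukocytes. It had 21.3, 53.9, 271 and 34.6 normalized counts in WT1 to WT4, and 411, 471 and 299 in dyW1 to dyW3. Every dyW library was above every WT library, a pattern shown by 3.28% of all tested genes, with WT3 close to the library labelled dyW3 and far from the other WT libraries. The WT mean was 95.2 ± 118 (SD, n = 4) and the dyW mean 394 ± 87.5 (SD, n = 3), 4.14-fold higher. The exact two-sided permutation test gave *P* = 0.0571, the smallest value that 4 against 3 libraries allow. The log2 fold change was 2.72 ± 0.85 (SE), with a limma adjusted *P*-value of 0.0391, and without WT3 it was 3.46 with an adjusted *P*-value of 0.00451, which passes the thresholds of the study. Over all 16 alternatives the log2 fold change was 2.22 to 3.87 and the adjusted *P*-value 0.00451 to 0.193, under 0.05 in 6 of them. Without both WT1 and dyW1, the log2 fold change was 2.22 and the adjusted *P*-value 0.148, and without the library labelled dyW3 they were 2.91 and 0.0435. The WT reads on *Anxa1* numbered 4, 20, 132 and 11, at 2.03, 2.55, 23.8 and 1.88 times the receptor gene level, and the dyW reads numbered 4223, 3726 and 612.

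The summed fibroblast markers, like *Anxa1*, separated the groups, but not each marker did. The summed level of 7 fibroblast markers was 4121 to 12704 normalized counts in the WT libraries and 20525 to 28888 in the dyW libraries, with no overlap. Of these markers, *Pdgfra* and *Col1a2* were higher at an adjusted *P*-value under 0.05, *Dpt* was at 0 in dyW1, and 7 of 7 had a read in every other library. In dyW1, where *Anxa1* was at 411, the sum was carried by *Col1a1* (8467) and *Col1a2* (12046), while *Col3a1* (232) was below every WT library, and *Lum* (683) and *Dcn* (134) were inside the WT range. Macrophage markers, 7 in number, summed to 133 to 337 normalized counts in the WT libraries, 58.1 in dyW1, 103 in dyW2 and 908 in the library labelled dyW3. In dyW1, 2 of these 7 had a read, and in dyW2 5 had. *Ptprc* was at 0 in both, while *Cd68* was at 39.2 and 31.4, against 8.09 to 34.6 in WT. The part of these cell types in the *Anxa1* level was not tested.

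**Figure D2:**
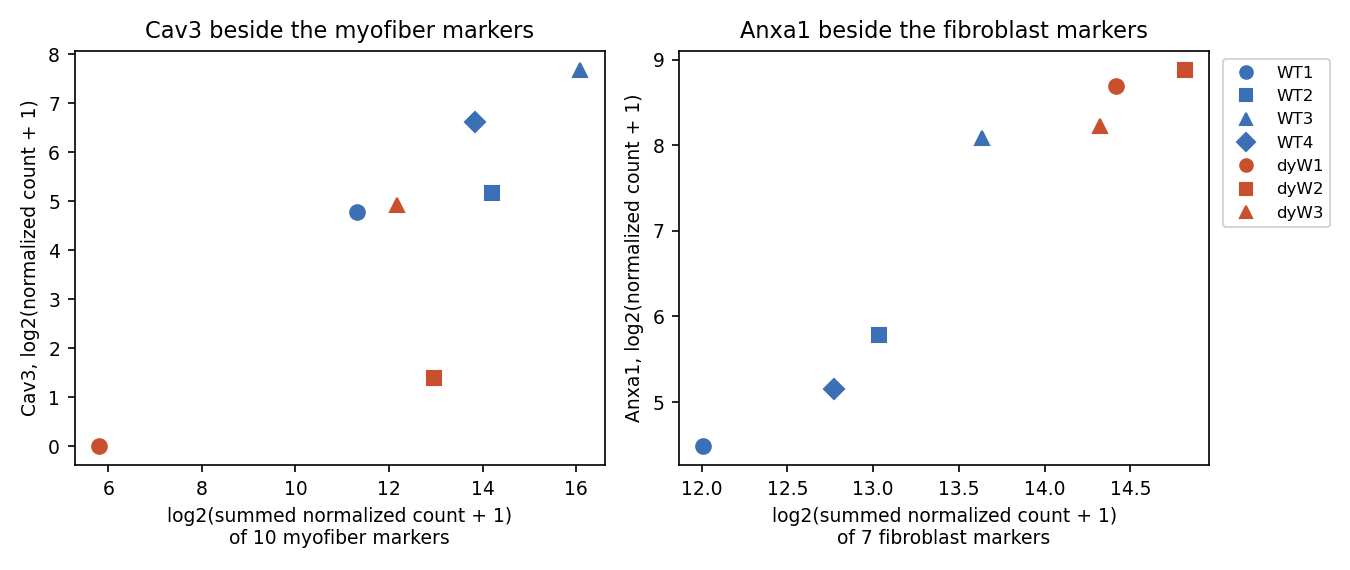
Left, Cav3 against the summed level of 10 myofiber markers; right, Anxa1 against the summed level of 7 fibroblast markers, each as log2(normalized count + 1), with 1 point per library. In dyW1, Cav3 was at 0 where the myofiber markers summed to 54.5, and the 3 dyW libraries held the highest values on both axes of the right panel.

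Annexin A2 and annexin A5 had the highest mean levels per kb of exon among the annexins of the set in both groups, though *Anxa1* was first in dyW1 and *Anxa6* was above *Anxa5* in WT2 and WT4, and neither separated the groups. Without WT3 the WT mean per kb was 27.8 for *Anxa5* and 38.1 for *Anxa6*. *Anxa2* (chr9:69360542-69399077, + strand), whose protein pairs with the small protein S100A10 and links membranes to actin, had 229, 585, 3206 and 296 normalized counts in WT1 to WT4, and 598, 2708 and 944 in dyW1 to dyW3. WT3 was above every dyW library, while the other WT libraries were below every dyW library. The means were 1079 ± 1426 (SD, n = 4) and 1417 ± 1131 (SD, n = 3), with a log2 fold change of 0.95 ± 0.94 (SE), a limma adjusted *P*-value of 0.466 and an exact permutation *P* = 0.629. Without WT3 the log2 fold change was 1.75 with an adjusted *P*-value of 0.0954, without dyW2 it was 0.33, and scaled to the same total it was 2.09, with adjusted *P*-values of 0.0887 to 0.841 over the 16 alternatives. *Anxa5* (chr3:36503072-36530126, - strand), whose protein forms a lattice on exposed phosphatidylserine, had 139, 316, 1169 and 252 normalized counts in the WT and 405, 2359 and 1173 in the dyW libraries. Again only WT3 reached into the dyW range, just below the library labelled dyW3. The log2 fold change of *Anxa5* was 1.62 ± 0.83 (SE), with a limma adjusted *P*-value of 0.168 and an exact permutation *P* = 0.114. Over the 16 alternatives it was 1.03 (without dyW2) to 2.77 (scaled to the same total), with adjusted *P*-values of 0.0222 to 0.456, under 0.05 in 2 of them. *Anxa2* and *Anxa5* were also the most similar pair of members, with a root mean square difference of 0.525 (log2) between their centred values over the 7 libraries.

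Annexin A4, a membrane-binding annexin of epithelia and other cells, was at similar levels in the WT libraries and dyW1. *Anxa4* (chr6:86713675-86771064, - strand) had 58.6, 56.6, 71.8 and 34.6 normalized counts in WT1 to WT4, 69.5 in dyW1, 240.5 in dyW2 and 195 in the library labelled dyW3. The WT mean was 55.4 ± 15.4 (SD, n = 4) and the dyW mean 168 ± 88.6 (SD, n = 3), a ratio of 3.04. The difference did not pass (log2 fold change 1.45 ± 0.64 SE, limma adjusted *P*-value 0.115, exact permutation *P* = 0.114), and dyW1 was the dyW library inside the WT range. Without dyW1 the log2 fold change was 1.99 with an adjusted *P*-value of 0.0401, and over the 16 alternatives it was 1.10 to 2.64 with adjusted *P*-values of 0.0252 to 0.402, under 0.05 in 3 of them.

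Annexins A6 and A7 showed no shift of the group means beyond their spread. *Anxa6* (chr11:54869654-54924305, - strand), the largest annexin and a component of the repair cap, had 80.0, 378, 589 and 318 normalized counts in the WT and 171, 489 and 265 in the dyW libraries, all 3 inside the WT range. Its log2 fold change was 0.03 ± 0.75 (SE), with a limma adjusted *P*-value of 0.976, and it was negative under quantile normalization (-0.71). It was 1.18 when scaled to the same total and 0.97 with voom on recovered reads. *Anxa7* (chr14:20505328-20530201, - strand), named synexin for its part in granule fusion, had 32.0, 62.0, 57.4 and 44.1 normalized counts in the WT and 153, 58.8 and 21.5 in the dyW libraries. The WT values of *Anxa7* rested on 6 to 28 reads, at 1.15 to 2.42 times the receptor gene level. The dyW libraries lay above, inside and below the WT range, and the log2 fold change of 0.29 ± 0.76 (SE) had a limma adjusted *P*-value of 0.793. The estimate for *Anxa7* was -0.40 without dyW1, 1.42 when scaled to the same total and 1.66 with voom on recovered reads.

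Shares within a family do not depend on the scaling between libraries. Among the 12 annexins measured, *Anxa2* held the highest share of reads per kb of exon in 6 of 7 libraries, at 29.3 to 63.6% in WT and 26.4 to 47.1% in dyW. In dyW1 the order changed, with *Anxa1* at 29.2% and *Anxa2* at 26.4%. The *Anxa1* share was 5.09, 5.76, 8.64 and 5.51% in WT1 to WT4 and 29.2, 13.2 and 18.2% in dyW1 to dyW3, so the share, like the level, did not overlap between the groups, with WT3 again the highest WT library. The *Anxa6* share also did not overlap, at 8.66 to 23.3% in WT and 5.62 to 7.45% in dyW, although the *Anxa6* level did. Of the 12 annexins, 6 had shares that did not overlap, 4 lower and 2 higher in dyW. In level, 31.5% of all tested genes lay below and 3.28% above every WT library in each dyW library. Apart from *Anxa6*, the lower shares were those of *Anxa10*, *Anxa11* and *Anxa13*. These had 2 to 7, 6 to 19 and 1 to 11 reads in the WT libraries, at 0.154 to 1.64 times the receptor gene level. The *Anxa5* share was 12.2 to 14.8% in WT, 10.6% in dyW1, 24.3% in dyW2 and 26.4% in the library labelled dyW3. A share falls when another member of the family rises, so the shares of *Anxa1* and *Anxa6* are not separate results.

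**Figure D3:**
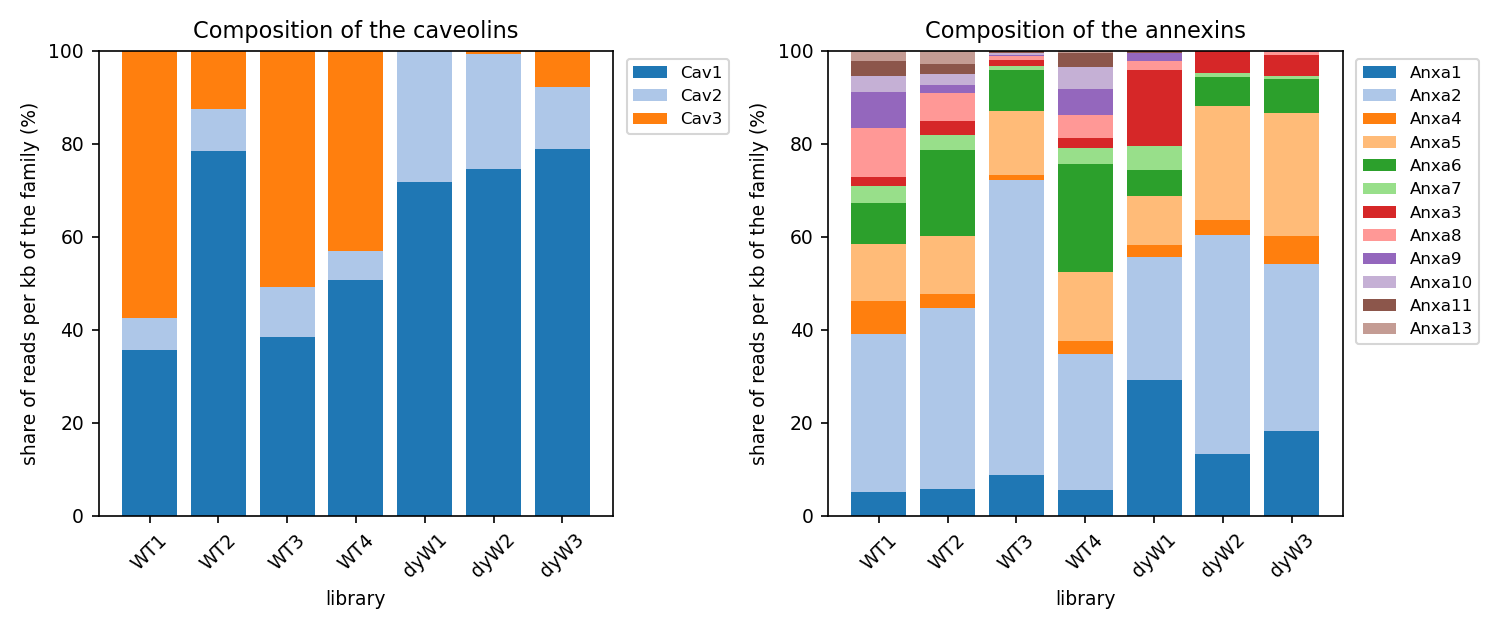
Share of each caveolin (left) and each annexin (right) in the summed reads per kb of exon of its family, in percent, with 1 bar per library. Cav3 took 12.6 to 57.5% of the caveolin bars in WT and 0 to 7.70% in dyW, and Anxa1 took 5.09 to 8.64% of the annexin bars in WT and 13.2 to 29.2% in dyW.

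Caveolin-3 was the member with the lowest fold change among those tested. *Cav3* (chr6:112436466-112449833, + strand) had 26.7, 35.1, 205 and 97.5 normalized counts in WT1 to WT4, 0 in dyW1, 1.64 in dyW2 and 29.3 in the library labelled dyW3. The library labelled dyW3 lay above WT1 and below the other WT libraries, and dyW1 and dyW2 lay below all of them. The WT mean was 91.1 ± 82.3 (SD, n = 4) and the dyW mean 10.3 ± 16.5 (SD, n = 3), 8.83-fold lower (exact two-sided permutation test, *P* = 0.114). The log2 fold change was -3.96 ± 1.25 (SE), with a limma adjusted *P*-value of 0.0402. This value lay -1.97 from the median of all tested genes, and farther below the median of 0.20 over genes with a mean of at least 50. Without the library labelled dyW3 it was -5.37 with an adjusted *P*-value of 0.00351, which passes the thresholds of the study. Over all 16 alternatives the log2 fold change was -5.37 to -2.09 and the adjusted *P*-value 0.00351 to 0.389, under 0.05 in 3 of them. The reads on *Cav3* numbered 5, 13, 100 and 31 in the WT libraries and 0, 13 and 60 in the dyW libraries, and the level per kb was 6.16, 4.02, 43.8 and 12.9 times that of the receptor genes in WT1 to WT4 and 25.3 times in the library labelled dyW3. The 0 reads in dyW1 were counted among 14363788 reads on genes.

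The myofiber markers followed *Cav3* in part. Both were lowest in dyW1 and highest in WT3, whereas dyW2, with *Cav3* at 1.64, had a marker sum of 8016 that was above that of WT1, and 1 of the 10 markers, *Ttn*, was lower at an adjusted *P*-value under 0.05. Per 1000 reads of the 10 myofiber markers, *Cav3* had 11.4, 1.93, 2.95 and 6.73 reads in WT1 to WT4 and 0.894, 0.213 and 6.45 in dyW1 to dyW3, with 0.5 read added to each sum, so that the dyW1 value stands for 0 reads. On this scale the library labelled dyW3 was inside the WT range, and the difference of the log2 means was -2.09 (exact permutation *P* = 0.229). The value of dyW2 was below every WT library. In dyW1, the 0 *Cav3* reads beside 559 marker reads allow up to 5.37 per 1000, which is above WT2 and WT3, so its place is not set. Without the library labelled dyW3 the difference was -3.39, which rests in part on the 0.5 read added. Relative to the same markers, *Anxa1* had 2.46 to 9.35 reads per 1000 in WT and 58.8 to 7549 in dyW (exact permutation *P* = 0.0571). *Anxa2*, *Anxa4*, *Anxa5*, *Anxa6* and *Cav1* gave the same *P* on this scale, with differences of 3.59 to 5.18 (log2), so it is not particular to *Anxa1*. The part of the myofiber share of a library in the *Cav3* level was not tested.

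Caveolin-1 did not separate the groups. *Cav1* (chr6:17306140-17341451, + strand), the main caveolin of endothelium and stroma, had 64.0, 849, 601 and 447 normalized counts in WT1 to WT4 and 185, 756 and 1165 in dyW1 to dyW3. WT1 and dyW1 were the low libraries of their groups. The log2 fold change was 0.65 ± 0.98 (SE), with a limma adjusted *P*-value of 0.641, and it was -0.16 without WT1. It was 1.80 when scaled to the same total (limma adjusted *P*-value 0.139) and 1.40 with voom on recovered reads. Endothelial markers, 8 in number, summed to 565 to 752 normalized counts in WT and 644 to 1506 in dyW, and each had a read in every library. Smooth muscle markers, 5 in number, summed to 155 to 2269 normalized counts in WT and to 2.44, 1130 and 576 in dyW1 to dyW3. *Acta2* held the highest of these counts in 4 of 7 libraries, *Myh11* in WT1 and dyW1, and *Rgs5* in dyW2. Adipocyte markers, 4 in number, summed to 101 to 765 in WT and to 52.4, 634 and 853 in dyW. *Fabp4*, which endothelium also expresses, made up 48.0 of the 101 in WT1, 42.6 of the 52.4 in dyW1, and most of the sum in the other libraries. *Plin1*, which coats fat droplets, was at 0 in all 3 dyW libraries and was called lower (log2 fold change -4.91, limma adjusted *P*-value 0.00372), like 18.7% of all tested genes. It rested on 6 to 15 reads in WT, at 0.621 to 1.497 times the receptor gene level, and the call was lost without WT2, WT4 or dyW2, where no gene was called lower. The part of these cell types in the *Cav1* level was not tested.

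The ratio of the caveolins did not overlap between the groups, whereas each of their levels did. The log2 ratio of *Cav3* to *Cav1*, in reads per kb with 0.5 read added to each, was 0.77, -2.59, 0.41 and -0.22 in WT1 to WT4 and -9.94, -6.83 and -3.35 in dyW1 to dyW3, with no overlap. The WT mean was -0.41 ± 1.51 (SD, n = 4) and the dyW mean -6.71 ± 3.30 (SD, n = 3), a difference of -6.30 that ranged from -7.98 to -4.68 as each library was left out. The dyW1 value stands for 0 *Cav3* reads plus the 0.5 added, so the size of the difference depends on it, with -5.98 when 1 read was added and -4.68 without dyW1. The exact two-sided permutation test gave *P* = 0.0571, the smallest that this test allows, or 0.171 after Benjamini-Hochberg adjustment over the 6 ratios examined and 0.286 over the 5 without *Capn3* to *Capn2*, for which no test is given. Of the reads on the pair, *Cav3* took 29.4% in WT1 (5 of 17 reads, exact 95% interval 10.3 to 56.0%), 3.96% in WT2 (2.13 to 6.68%), 25.4% in WT3 (21.2 to 30.1%) and 17.9% in WT4 (12.5 to 24.5%). In the dyW libraries it took 0 of 1900 reads in dyW1 (0 to 0.194%), 0.217% in dyW2 (0.116 to 0.371%) and 2.45% in the library labelled dyW3 (1.88 to 3.15%). The intervals of WT2 and the library labelled dyW3 overlap, those of the other pairs of a WT and a dyW library do not, and they cover counting error only, since PCR copies are not told apart. With *Cav2*, the partner of caveolin-1, included, *Cav3* made up 57.5, 12.6, 50.8 and 43.0% of the caveolin reads per kb in WT1 to WT4 and 0, 0.629 and 7.70% in dyW1 to dyW3 (difference of the means -38.2 percentage points, exact permutation *P* = 0.0571). The *Cav2* share was 6.23 to 10.8% in WT and 13.4 to 28.3% in dyW.

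**Figure D4:**
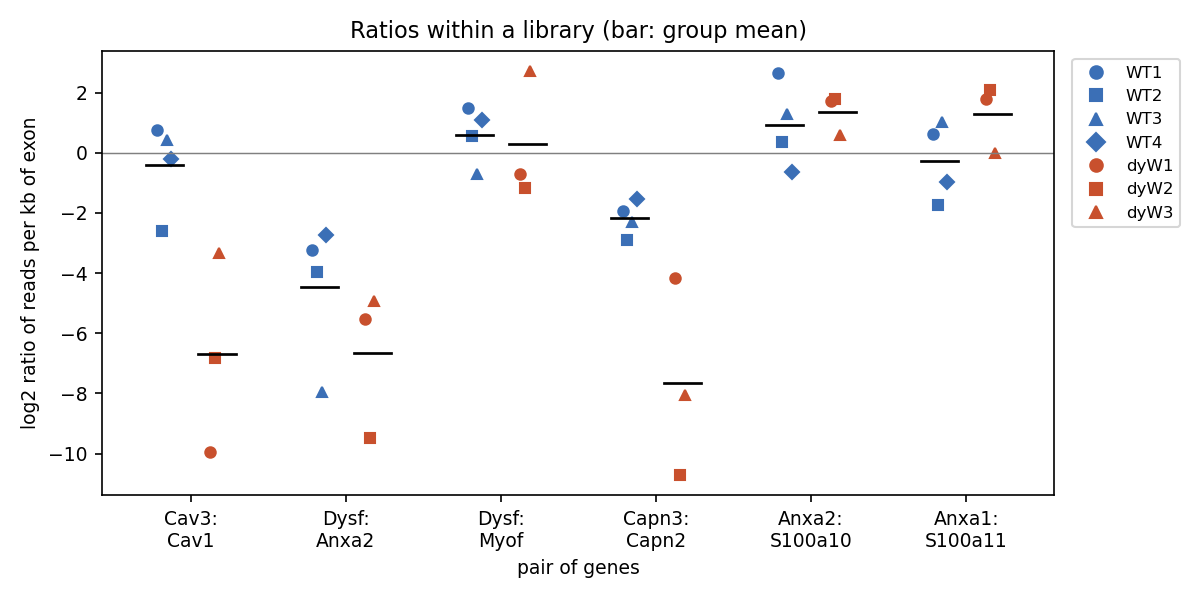
Log2 ratios of reads per kb of exon for 6 pairs of genes, with 1 point per library and a bar at the group mean. The Cav3 to Cav1 ratio was -2.59 to 0.77 in WT and -9.94 to -3.35 in dyW, the groups overlapped in 4 of the other pairs. The Cav3 to Cav1 value of dyW1 and the Capn3 to Capn2 values of dyW2 and dyW3 stand for 0 reads of the first gene plus 0.5.

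Calpain 3 was at the limit of detection. *Capn3* (chr2:120294048-120338450, + strand) had 5.33, 5.39, 6.15 and 12.6 normalized counts in WT1 to WT4, from 1, 2, 3 and 4 reads, and 3.22, 0 and 0 in dyW1 to dyW3, from 33, 0 and 0 reads. Each dyW library was below each WT library, as for 31.5% of the tested genes, and the exact two-sided permutation test gave *P* = 0.0571. The highest dyW value is below what a count of 0 allows in every WT library, and the WT values reached 0.108 to 0.290 times the receptor gene level. In these libraries the WT level of *Capn3* was therefore below that of genes without a known role in muscle, and no fold change of *Capn3* is given. The ratio of *Capn3* to the ubiquitous calpain *Capn2* was -1.95, -2.89, -2.31 and -1.53 (log2) in WT and -4.17, -10.7 and -8.05 in dyW. The values of dyW2 and dyW3 stand for 0 *Capn3* reads plus the 0.5 added, beside 1520 and 239 *Capn2* reads, against 10 to 33 *Capn2* reads in the WT libraries, so the number of reads fixes the size of this ratio and no test of it is given. Exons of *Capn3* share 2155 bases with *Gm52968* on the same strand and 1981 bases with *Zfp106* on the opposite strand, so its reads are uncertain.

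The remaining ratios overlapped between the groups. *Dysf* to *Anxa2* differed by -2.17 (exact permutation *P* = 0.343), *Dysf* to the related ferlin *Myof* by -0.33 (*P* = 0.743), *Anxa2* to its partner *S100a10* by 0.44 (*P* = 0.629) and *Anxa1* to its partner *S100a11* by 1.56 (*P* = 0.171), each by the exact permutation test on the log2 scale. The *Dysf* to *Myof* ratio was 2.72 in the library labelled dyW3, above every other library. These P-values miss the threshold and do not show that the ratios were alike.

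By length, *Anxa2* led in both groups, with a mean of 215 normalized counts per kb of exon in WT and 282 in dyW. The WT lead rested on WT3, and without it the WT mean was 73.6 for *Anxa2* and 90.8 for *Cav1*, which was above *Anxa2* in WT2, WT4 and the library labelled dyW3. In WT it was followed by *Cav1* (98.2), *Cav3* (70.8), *Anxa5* (55.3), *Anxa6* (50.3), *Anxa1* (30.4), *Anxa4* (8.94), *Anxa7* (7.49), *Dysf* (5.79) and *Capn3* (0.997), all as means per kb. In this order 8 of the 9 neighbouring pairs overlapped in their ranges over the libraries, and *Dysf* and *Capn3* did not. In dyW the order after *Anxa2* was *Anxa5* (155), *Cav1* (141), *Anxa1* (126), *Anxa6* (45.5), *Anxa4* (27.2), *Anxa7* (11.9), *Cav3* (8.01), *Dysf* (3.16) and *Capn3* (0.145). There 7 of 9 neighbouring pairs overlapped, and the steps from *Anxa1* to *Anxa6* and from *Dysf* to *Capn3* did not. By its mean, *Cav3* ranked 3 of 10 in WT and 8 of 10 in dyW. Without the library labelled dyW3 its dyW mean was 0.639 per kb and its rank 9, and without WT3 its WT mean was 41.2 and its rank 3.

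Of the wider repair machinery, genes were called lower from 3 lists and none was called higher at the thresholds of the study, beside 18.7% lower and 0.0659% higher over all tested genes. No gene at all was called lower without WT2, without WT4, without dyW2, without WT1 and dyW1 together, with a pseudocount of 10 or when scaled to the same total, so the calls of *Anxa10*, *Otof*, *Fer1l6*, *Syt7* and *Plin1* do not hold under these settings. Of the 6 other annexins, 1 was called lower at the thresholds of the study, *Anxa10* (log2 fold change -3.76, limma adjusted *P*-value 0.00424), and at 0.05 *Anxa13* was also lower (-3.22, 0.0153) while *Anxa3* was higher (2.88, 0.0159). *Anxa13* had 1 to 11 reads in each WT library, at 0.154 to 1.26 times the receptor gene level, and 0 in the dyW libraries, so its fitted fold change depends on the pseudocount. *Anxa3* had 15.99, 53.9, 77.9 and 28.3 normalized counts in WT1 to WT4 and 458, 338 and 145 in dyW1 to dyW3, and was thus, like *Anxa1*, above every WT library in each dyW library. In WT it stood at 0.766 to 3.45 times the receptor gene level, from 3 to 38 reads. Its share of the annexins was 1.25 to 2.90% in WT and 4.46 to 16.4% in dyW. The median log2 fold change of the 6 other annexins was -2.57, beside -1.99 over all tested genes. *Anxa10* had 2 to 7 reads in each WT library, at 0.985 to 1.64 times the receptor gene level, and 2, 0 and 0 reads in dyW1 to dyW3.

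The ferlins apart from dysferlin, 4 in number, had 2 members called lower, *Otof* (-5.64, limma adjusted *P*-value 0.00372), the ferlin of inner hair cells, and *Fer1l6* (-4.59, 0.00452), and at 0.05 also *Fer1l5* (-3.68, 0.0321). *Otof* had 26.7 to 78.2 normalized counts in WT and 0, 0.126 and 0 in dyW. Its WT level was 0.898 to 1.57 times that of the receptor genes, and that of *Fer1l6* 0.591 to 1.40 times. *Myof*, which is active in myoblast fusion and is the ferlin of highest mean over all 7 libraries in this list (in WT *Otof* was higher, at a mean of 55.8 against 50.7 normalized counts), stood at 0.461 to 1.15 times the receptor gene level in WT and had a log2 fold change of -0.82 and an adjusted *P*-value of 0.436. The median of the 4 was -4.13. The vesicle fusion list held *Syt7*, a calcium sensor of lysosome fusion, called lower at -5.28 (0.00372) and at 0 in all 3 dyW libraries, from 0.552 to 1.24 times the receptor gene level in WT, and *Stx4a* and *Snap23*, which were not called. *Snap23*, the most abundant of them, had a log2 fold change of 0.69 with an adjusted *P*-value of 0.462.

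None of the 8 other caveola components was called at either threshold, with a median log2 fold change of 0.11. *Cavin2*, highest by the mean over all 7 libraries through dyW2 and the library labelled dyW3 (in WT *Ehd2* was higher, at a mean of 180 against 119), ranged from 10.7 to 279 normalized counts in WT and from 20.6 to 1049 in dyW (log2 fold change 1.58 ± 1.46 SE, limma adjusted *P*-value 0.435). *Cavin4*, the muscle cavin, was at 0 in WT1, dyW1 and the library labelled dyW3. The 3 S100 partners of annexins were not called either. *S100a10* had 48.0, 626, 1807 and 642 normalized counts in WT and 253, 1089 and 877 in dyW, with WT3 highest as for *Anxa2*. The 4 other calpain genes, calpastatin included, and the 6 genes of ESCRT membrane scission had no call. By the mean over all 7 libraries their highest genes were *Cast*, the calpain inhibitor (log2 fold change 0.53, adjusted *P*-value 0.552), and *Vps4b*, an ATPase that takes ESCRT filaments apart (1.24, 0.0981), though *Pdcd6* was above *Vps4b* in WT (means of 117 and 104). *Capn2*, *Capns1* and *Vps4b* were above every WT library in each dyW library, a pattern at 3.28% of all tested genes.

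Among the 6 repair cap proteins, *Ahnak*, a giant scaffold that binds dysferlin and S100A10, was higher at 0.05. It had 197, 116, 127 and 160 normalized counts in WT1 to WT4 and 748, 636 and 276 in dyW1 to dyW3, with no overlap (log2 fold change 1.78 ± 0.54 SE, limma adjusted *P*-value 0.0339). The WT level of *Ahnak* was 0.713 to 2.45 times that of the receptor genes, and 12.8 times in the library labelled dyW3. *Trim72*, which encodes the muscle repair protein MG53, had a mean below 5 normalized counts and was not tested, with values from 0 to 6.29 in WT and from 0 to 0.379 in dyW.

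**Figure D5:**
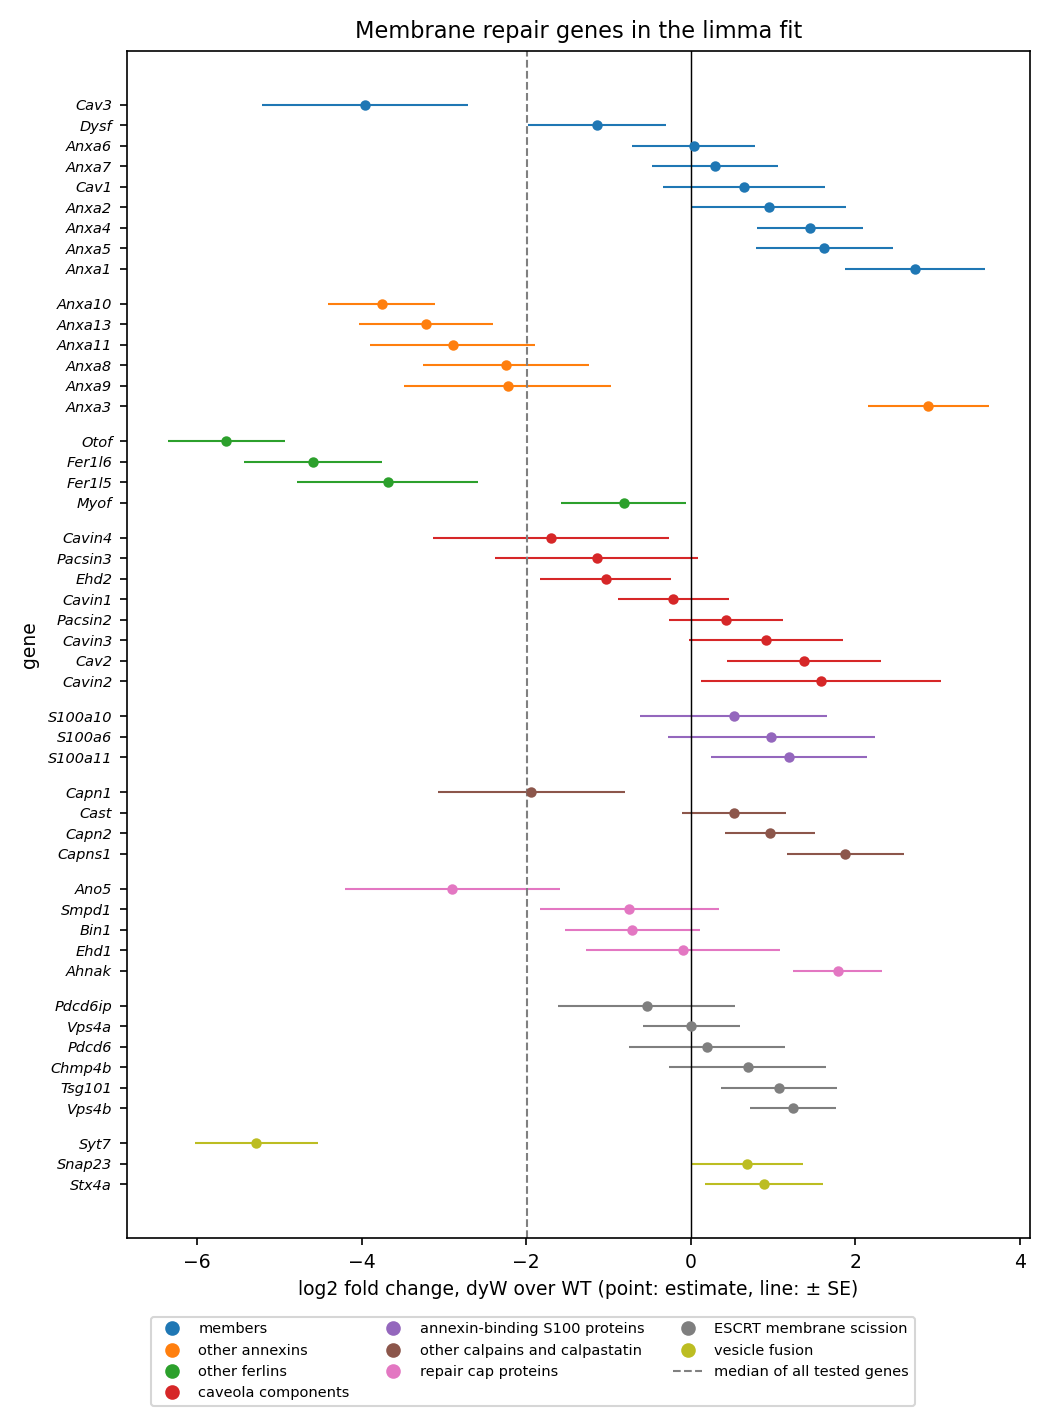
Log2 fold change of dyW over WT in the limma fit, with 1 point per tested gene and lines of 1 SE to either side, coloured by list. The dashed line marks the median of all tested genes at -1.99, and Cav3 (-3.96) is the only tested member to its left. The median over genes with a mean of at least 50 was 0.20 and is not drawn. Capn3 and Trim72 were not tested.

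The genes whose patterns over the 7 libraries were most like a member's were sought among genes with a mean of at least 50 normalized counts, by the root mean square difference of centred log2 values. The closest was *Tmem131l* for *Dysf* (0.224), *Capza2* for *Anxa1* (0.481), *Prdx1* for *Anxa2* (0.277), *Prdx3* for *Anxa4* (0.196), *Mdh1* for *Anxa5* (0.210), *Ddah2* for *Anxa6* (0.215), *Dmtf1* for *Anxa7* (0.150) and *Elp2* for *Cav1* (0.364). *Stk11ip*, *Eloc*, *Tceal9*, *Bhlhb9*, *Cst3*, *Atp5g3*, *Mfsd1* and *Rhoj* came next, in the same order. The closest genes to *Cav3*, *Dnah7b* at 1.03 and *Hmcn2* at 1.09, were farther away than those of the other members, and the lowest values for *Capn3* belonged to *Crtc3* and *Vangl1* and rest on its few reads.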

How the data were processed

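Muscle fibers of WT and dyW fetuses at E17.5 were sequenced in 4 WT and 3 dyW libraries. The authors used Cutadapt for trimming, RNA STAR for alignment to GRCm39 and FeatureCounts to count uniquely mapped reads per gene, and tested genotypes with DESeq2. Versions, annotation release and strand setting are not given in the sources used here. The authors deposited normalized counts per library, written with decimal commas, which are read counts divided by a size factor. A deposited table of their fold changes and *P*-values was not used. Groups follow the genotype labels. The paper describes its normalized counts as coming from 3 to 4 independent samples of each genotype. The labels do not name the fetus behind each library, so *P*-values measure the spread between these libraries.

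Each library's smallest step was taken as 1 read, and 100% of its values then came out within 0.1 of a whole number. GENCODE mouse release 39 held 99.2% of the gene identifiers and gave coordinates and exon lengths, and 1841 genes had no symbol. Upstream windows of 250 bases were read from GRCm39. Genes averaging at least 5 normalized counts entered limma 3.58.1 (lmFit, eBayes with trend, R 4.3.3) on log2(normalized count + 1), with all 7 libraries and Benjamini-Hochberg adjustment. Fold changes on this scale understate the change of low genes. The exact permutation test of single members, ratios and shares was two-sided and used the 35 assignments of 7 libraries. Ratios had 0.5 read added to each gene. The scripts ran in Python 3.11.15 with numpy 2.4.6, pandas 2.3.3, matplotlib 3.10.9 and scipy 1.17.1. The limma step was tried on simulated data with equal means in both groups apart from a set of changed genes. That simulation did not hold the larger number of detected genes in WT, so it does not show how the fit behaves on these libraries.

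The members, gene lists and alternatives were chosen with earlier results of these data known. Genes named are the 10 members, the genes of the other lists that limma called and the gene of highest mean over all libraries in each list, the partners in the ratios, *Lama2*, and the 2 genes most like each member. *Trim72*, *Cavin4*, *Stx4a*, *Ehd2*, *Pdcd6*, *Capns1*, the marker genes named singly and the overlapping genes were named after their values were seen. The alternatives covered a pseudocount of 0.1 or 10, the filter (none, or a mean of 50), scaling to the same total, quantile normalization, an adjusted *P*-value under 0.05, a replicate block, 1 read added in ratios, and each library left out. Voom on recovered reads, the level relative to myofiber markers, and leaving out WT1 and dyW1 together were added after seeing the data.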

Additional observations from a re-analysis of the deposited data

Results flagged for a closer look

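In 3 of 20 values examined, 1 WT library stood far from the other WT libraries by Dixon's test. For normally distributed values chance gives about 1 in 20, but counts such as the 1 to 4 reads of *Capn3* need not follow that distribution. The number that chance gives here is therefore not known. *Anxa1* was at 271 normalized counts in WT3 and at 21.3 to 53.9 in the other WT libraries. *Anxa2* was at 3206 normalized counts in WT3 and at 229 to 585 in the others. *Capn3* was at 12.6 normalized counts in WT4, from 4 reads, and at 5.33 to 6.15 in the others, from 1 to 3 reads. WT3 also had the highest summed myofiber markers, at 69877 normalized counts, and the highest fibroblast markers among the WT libraries, at 12704. Whether these values have a shared source was not tested.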

How the results depend on the processing

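The low read numbers of the WT libraries limit the members, with *Capn3* at 1 to 4 reads and *Dysf* at 10 to 32. Of 144 member fold changes recomputed, 135 kept their direction and side of the thresholds, 2 passed them (*Cav3* without the library labelled dyW3, *Anxa1* without WT3) and 7 reversed. *Anxa6* was -0.71 under quantile normalization, -0.55 without WT1, -0.36 without dyW2 and -0.20 without WT1 and dyW1 together, with a range of -0.55 to 0.40 as each library was left out. *Anxa7* was -0.40 without dyW1 (range -0.40 to 0.99) and -0.58 without WT1 and dyW1, and *Cav1* was -0.16 without WT1 (range -0.16 to 1.43). Of 61 ratio and share values, 4 reversed: *Dysf* to *Myof* was 0.17 without dyW1 and 0.40 without dyW2, leaving a range of -1.55 to 0.40, and *Anxa2* to *S100a10* was -0.087 without WT4 and under the replicate block, with a range of -0.087 to 1.02. The causes were not tested.

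Members called lower ranged from 0 to 1, and members called higher from 0 to 1, as each library was left out. All genes called lower (4830) and higher (17) moved far more. As each library was left out they ranged from 0 to 6698 and from 0 to 25. Both counts were 0 with a pseudocount of 10, with a mean of at least 50, when scaled to the same total and without WT1 and dyW1. In these limma fits 9849, 536, 7773 and 10202 genes were lower, and 777, 717, 2488 and 722 higher, at an unadjusted *P*-value under 0.05. There were 2 lower and 0 higher under quantile normalization (1769 and 2216 unadjusted). With a pseudocount of 0.1, 41 were higher, with no filter 10, and with voom 68. At an adjusted *P*-value under 0.05, 7625 were lower and 259 higher, and 1 member each way.

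Same-numbered libraries of the groups correlated at 0.15, -0.05 and -0.09 in their deviations, so the numbers do not pair them. With the replicate block, which leaves out WT4, 1 gene was lower and 0 were higher (8543 and 300 at an unadjusted *P*-value under 0.05), and no member was called. edgeR and DESeq2 on recovered reads were not run.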
